A study of Mus musculus with 6 samples.

Results

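Transcripts of 10 genes of glucose uptake, glycolysis and the response to low oxygen were followed in kidneys of homozygous mutant and wild-type mice. The genes were listed by symbol, and a gene counted as measured where a probe of the array carried that symbol alone, the probe with the highest mean standing for the gene. That rule gave a probe for 9 of the 10 genes, all of which were also tested, among 18048 genes with such a probe and 14817 tested. Aldoa, which encodes an aldolase, had no probe of that kind and was not analysed here. The 9 were Slc2a1, Hk1, Hk2, Pfkp, Pfkl, Pfkm, Ldha, Ldhb and Vegfa.

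RNA came from a piece of kidney taken after the vessels had been rinsed with saline, from 3 homozygous mutant mice, titled KO, and 3 wild-type mice, each on its own single-colour CodeLink array. The animals of a genotype were different individuals, so the spread between arrays is biological and technical together. The sources used here do not name the mutated gene, the strain, the age or the sex, so the labels could not be checked against the mutated gene's own transcript. Intensities are given as multiples of the array median and levels as their log2. Differences are log2 values in mutant minus wild type with the standard error of a limma fit over all 25834 tested probes, and "rose" and "fell" are kept for genes past a Benjamini-Hochberg adjusted p of 0.05 over those probes.

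Glycolysis turns glucose into pyruvate in the cytosol. Glucose enters cells through carriers such as Slc2a1, is trapped by hexokinases, is committed to the pathway by phosphofructokinase and ends as pyruvate, which lactate dehydrogenase can turn into lactate. In the kidney the proximal tubule lives mainly on fatty acids and makes glucose, while glycolysis is known for the distal nephron and the medulla. Under low oxygen the factors Hif1a and Epas1 escape degradation and raise many glycolytic genes and Vegfa, the main growth factor for blood vessels.

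Of the 9 genes, Hk2 and Pfkp rose in mutant kidneys and 0 fell. Hk1, the other hexokinase among the 9, and the other phosphofructokinase isoforms had negative differences that did not pass the test. Slc2a1, Ldha, Ldhb and Vegfa differed by at most 0.12 log2 units in either direction. Across the whole array 7.26% of tested genes passed, 5.67% upwards and 1.59% downwards. Over probes the shares were 5.39%, 4.11% upwards and 1.27% downwards. A count of 2 genes among 9 is too small to read as a share above that background, and it was 0 to 1 when single arrays were left out. The median of the 9 differences was -0.07, against 0.08 over all tested genes. Of the 6 genes with a value on every array, 2 had all mutant arrays above all wild-type arrays and 0 had them below, against 14.9% and 8.32% of all probes measured on every array, or 23.2% in both directions.

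**Figure D1:**
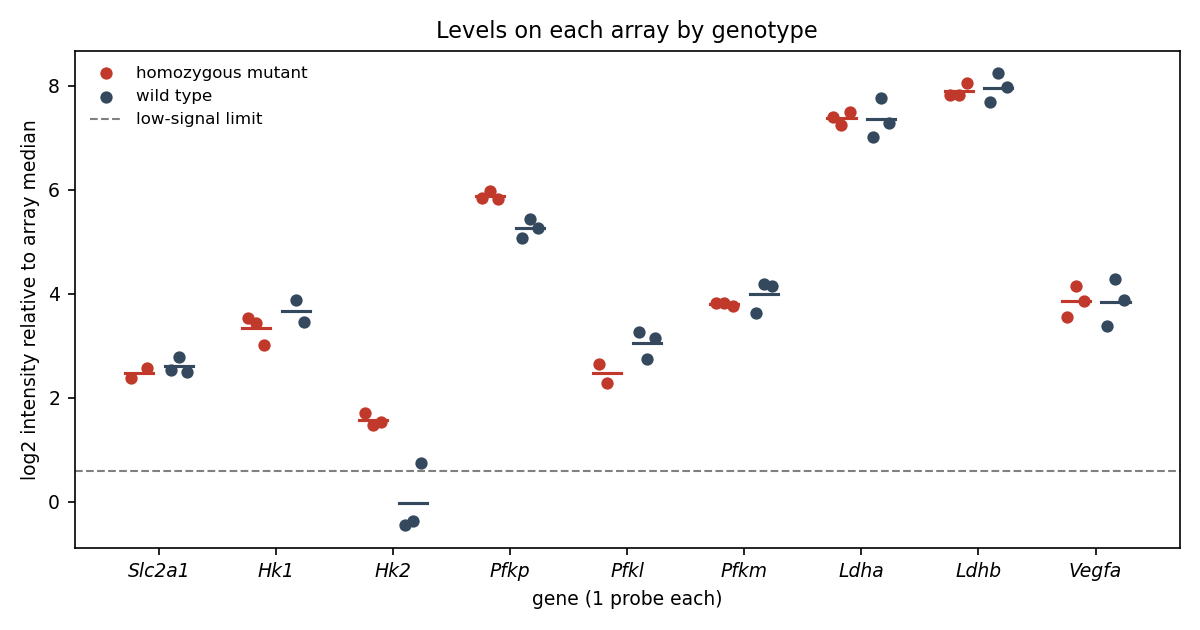
Log2 intensity relative to the array median for each of the 9 genes, with 1 point per array and a bar at the group mean, homozygous mutant left of wild type. The dashed line is the low-signal limit of 0.59, and the 3 mutant points lie above the 3 wild-type points for Hk2 and Pfkp. Levels of different genes come from different probes and are not comparable.

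Kidney segments were represented on the arrays. All measured markers of the proximal tubule, thick ascending limb, distal convoluted tubule, principal cells and intercalated cells exceeded a low-signal limit of 1.5 times the array median on at least 1 array. That limit was set after the values had been seen, from the mode and the spread of the dim values. The share of values above it ran from 37.7% to 41.8% over the 6 arrays. Replicate 1 of both genotypes carried Xist signal (7.98 in the mutant, 4.64 in wild type) and replicates 2 and 3 carried the Y-linked Eif2s3y (8.05 to 11 in mutants, 9.33 to 10.4 in wild type), so the replicate numbers divide both genotypes in the same way. In whole kidney, fewer cells of a type and less RNA per cell cannot be told apart.

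Glucose uptake is represented by Slc2a1, the broadly expressed glucose carrier GLUT1. Its intensity was 5.24 and 5.92 times the array median on the 2 mutant arrays with a value, against 5.79, 6.85 and 5.65 on the wild-type arrays. The genotypes overlapped. The difference was -0.12 ± 0.20 log2 units, with a 95% interval from -0.55 to 0.31 (limma, adjusted p = 0.823). Mutant replicate 2 had no value for this probe.

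Hexokinases phosphorylate glucose on entry into the cell, and Hk1 and Hk2 encode forms that can bind mitochondria. Hk2, known as the inducible form of muscle and fat and as a hypoxia target, had intensities of 3.28, 2.78 and 2.89 in mutant kidneys, against 0.732, 0.777 and 1.68 in wild-type kidneys. All 3 mutant arrays lay above the low-signal limit and above every wild-type array, while in wild type 1 of 3 arrays, replicate 3, exceeded the limit. Hk2 rose by 1.59 ± 0.38 log2 units in the fit (limma, adjusted p = 0.0242, 95% interval 0.78 to 2.41). With each dim wild-type value set at the limit, the mean of the mutants, 1.57 ± 0.12 log2 (SD, n = 3), was at least 1.91-fold higher. Wild type averaged -0.02 ± 0.67 log2 (SD, n = 3), a wider spread.

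The call of Hk2 depended on the arrays and on the variance model. It was lost without mutant replicate 1, 2 or 3 and without wild-type replicate 1 or 2, where the adjusted p of the limma fit lay between 0.0546 and 0.101, and kept without wild-type replicate 3 at 0.0069. With no intensity trend in the variance it was 0.121. With dim wild-type values again set at the limit, the mutant was higher by at least 1.12 log2 units within replicate 1 and at least 0.89 within replicate 2. Within replicate 3, where both arrays exceeded the limit, it was higher by 0.78.

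Hk1, the constitutive hexokinase of most tissues, had intensities of 11.7, 10.8 and 8.09 in mutant kidneys, against 14.9 and 11 on the 2 wild-type arrays with a value. The genotypes overlapped, and wild-type replicate 1 had no value. Its difference was -0.34 ± 0.20 log2 units (limma, adjusted p = 0.440, 95% interval -0.78 to 0.09).

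Phosphofructokinase catalyses the committed step of glycolysis as a tetramer of platelet (Pfkp), liver (Pfkl) and muscle (Pfkm) subunits. Pfkp had intensities of 57.5, 62.7 and 56.6 in mutant kidneys, against 33.9, 43.2 and 38.5 in wild-type kidneys. Every mutant array lay above every wild-type array, and all 6 were well above the low-signal limit. Pfkp averaged 5.88 ± 0.08 log2 in mutants and 5.26 ± 0.17 log2 in wild type (SD, n = 3 each), and rose by 0.62 ± 0.14 log2 units, or 1.54-fold (limma, adjusted p = 0.0174, 95% interval 0.32 to 0.92). A larger difference was found in 14.7% of the tested genes. The difference was 0.76, 0.54 and 0.56 within replicates 1, 2 and 3. The call was lost without mutant replicate 2 (limma, adjusted p = 0.0932), without wild-type replicate 3 (0.0756), with only replicates 2 and 3 (0.0693) and with no intensity trend (0.215).

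The other phosphofructokinase subunits did not pass the test. Pfkl, the liver-type subunit, had intensities of 6.33 and 4.90 on the 2 mutant arrays with a value, against 9.67, 6.73 and 8.94 in wild-type kidneys. Both mutant values lay below every wild-type value, and mutant replicate 3 had none. The difference was -0.58 ± 0.21 log2 units and did not pass over all probes (limma, adjusted p = 0.167, 95% interval -1.05 to -0.12), and it stayed negative in all 15 alternatives that gave a value, with adjusted p between 0.0785 and 0.422. Pfkm, the muscle-type subunit, had intensities of 14.1, 14.2 and 13.6 in mutant kidneys, against 12.5, 18.3 and 17.8 in wild-type kidneys. The mutant arrays lay close together inside the wild-type range. Pfkm differed by -0.19 ± 0.16 log2 units (limma, adjusted p = 0.614, 95% interval -0.54 to 0.15).

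**Figure D2:**
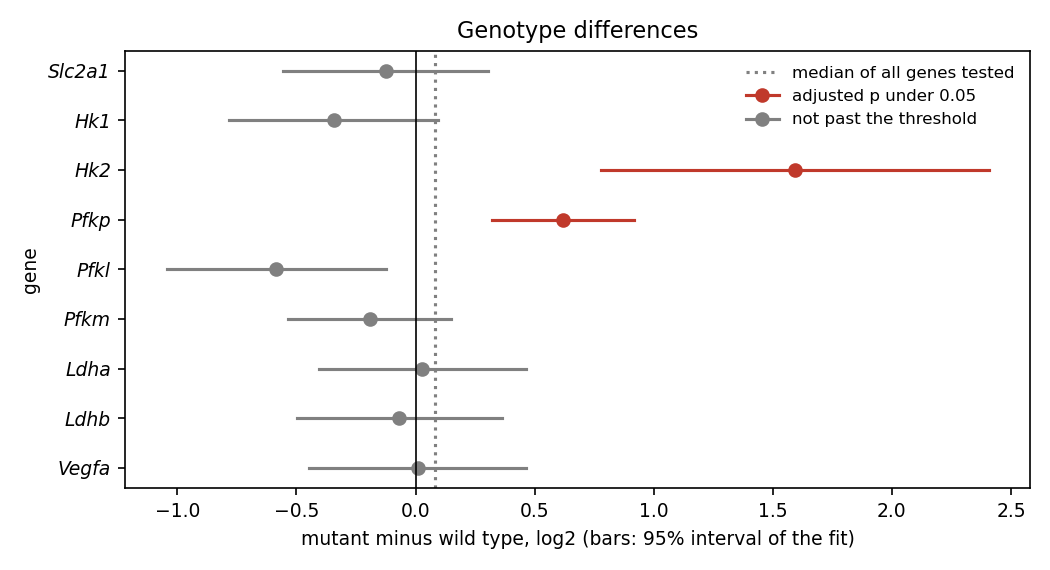
Difference of each gene, mutant minus wild type on the log2 scale, with the 95% interval of the fit and the median of all tested genes (0.08) dotted. Hk2 at 1.59 and Pfkp at 0.62 are the genes past the threshold, and Pfkl at -0.58 is the most negative.

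The promoters of the genes that rose, Hk2 and Pfkp, are shown beside that of Ldha, a textbook target of the hypoxia factors that did not pass the test. Each is the RefSeq window in GRCm38.p6 of 250 bases before to 50 bases after an annotated start, written 5′ to 3′ along the gene. Capitals mark the core letters bound by hypoxia factors, ACGTG or GCGTG, on either strand, so that they also appear as CACGT or CACGC. Ldha has 2 such windows, of which the first in the table is printed.
Hk2, chr6:82774405-82774704, minus strand: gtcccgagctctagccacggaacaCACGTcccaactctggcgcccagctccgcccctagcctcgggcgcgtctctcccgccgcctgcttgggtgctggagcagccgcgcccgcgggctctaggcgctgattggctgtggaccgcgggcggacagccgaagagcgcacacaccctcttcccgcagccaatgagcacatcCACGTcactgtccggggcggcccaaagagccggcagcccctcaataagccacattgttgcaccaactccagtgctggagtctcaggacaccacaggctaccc
Pfkp, chr13:6648722-6649021, minus strand: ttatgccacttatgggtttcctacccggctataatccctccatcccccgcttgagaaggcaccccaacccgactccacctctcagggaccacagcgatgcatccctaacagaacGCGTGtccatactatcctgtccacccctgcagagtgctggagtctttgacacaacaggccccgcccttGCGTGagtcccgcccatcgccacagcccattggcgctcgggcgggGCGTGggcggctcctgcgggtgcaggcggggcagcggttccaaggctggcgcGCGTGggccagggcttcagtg
Ldha, chr7:46845554-46845853, plus strand: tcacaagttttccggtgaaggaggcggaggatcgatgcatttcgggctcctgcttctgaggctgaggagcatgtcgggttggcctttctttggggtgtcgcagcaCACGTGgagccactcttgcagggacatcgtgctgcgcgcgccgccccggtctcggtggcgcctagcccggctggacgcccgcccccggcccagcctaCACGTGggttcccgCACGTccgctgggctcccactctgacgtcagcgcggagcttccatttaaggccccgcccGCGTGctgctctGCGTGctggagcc

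The Hk2 window held 2 matches, both of ACGTG read on the opposite strand, and the Pfkp window held 4, all of GCGTG on the gene's own strand. The printed Ldha window held 7, counting the palindrome CACGTG once per strand. The second Ldha window held 2. Among the other genes, the Hk1 windows held 0 and 5 matches, the Pfkm windows 3, 2, 1 and 0, the Pfkl and Ldhb windows 1 each, the Slc2a1 window 2, and the Vegfa windows 0 and 2. At least 1 match occurred in 43.8% of all 32851 windows of 300 bases, ACGTG in 19.6% and GCGTG in 32.4%. Promoters that hold these letters thus belong to genes that rose and to genes that did not pass, and the match is a description of letters, not of binding.

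Isoforms were set against each other within each array, as the log2 ratio of the 2 probes, and the ratio was compared between genotypes in 5 pairs. The exact permutation test over arrays is two-sided, and its smallest possible p is 0.1 with 3 arrays in each genotype and 0.2 where 1 array lacked a value, so no pair could reach 0.05. The ratio of Hk2 to Hk1 was -1.83, -1.96 and -1.49 log2 in mutants, against -4.26 and -2.71 in the 2 wild-type kidneys with both values. All mutant ratios were higher, by 1.72 log2 units on average in the measured values (exact permutation p = 0.2, adjusted 0.333, n = 3 and 2). Hk2 lay below the low-signal limit on wild-type replicate 2, and with that value set at the limit the ratio was at least 2.37-fold higher. The measured difference was 0.95 without that array and 2.50 without wild-type replicate 3.

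The ratio of Pfkp to Pfkm spread less over the arrays of a genotype. It was 2.03, 2.14 and 2.06 log2 in mutants, against 1.44, 1.24 and 1.11 in wild type. The genotypes did not overlap, and the ratio was 0.81 log2 units or 1.76-fold higher in mutants (exact permutation p = 0.1, the smallest the design allows, adjusted 0.333, n = 3 each). Without single arrays this difference stayed between 0.74 and 0.90. The ratio of Pfkp to Pfkl was 3.18 and 3.68 in mutants, against 1.81, 2.68 and 2.11 in wild type, a difference of 1.23 log2 units (exact permutation p = 0.2, adjusted 0.333, n = 2 and 3). The ratio of Pfkm to Pfkl overlapped between genotypes and differed by 0.41 (exact permutation p = 0.4, n = 2 and 3), or by 0.13 without wild-type replicate 1. A ratio shows unequal change of its 2 genes, and by itself not which of them changed.

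**Figure D3:**
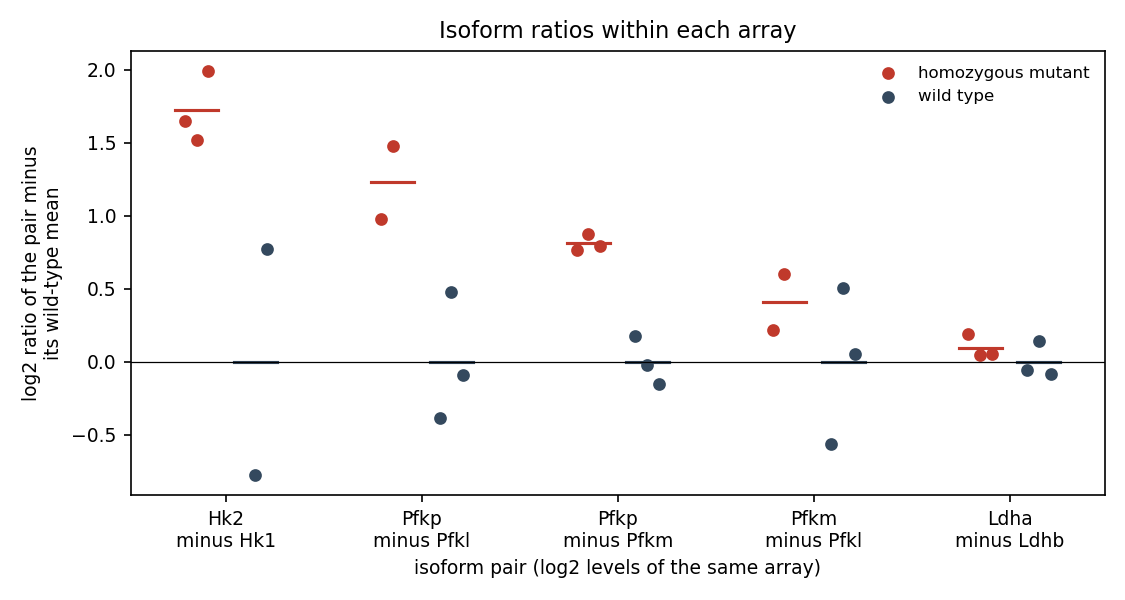
Log2 ratio of 2 isoform probes on the same array, minus the wild-type mean of that ratio, with 1 point per array and bars at the means, homozygous mutant left of wild type. Mutant ratios exceed all wild-type ratios in the 3 pairs led by Hk2 or Pfkp, and overlap with them for Pfkm to Pfkl and Ldha to Ldhb.

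Lactate dehydrogenase interconverts pyruvate and lactate, with Ldha encoding the subunit that predominates in muscle and Ldhb the one of heart and oxidative tissue. Ldha had intensities of 169, 152 and 181 in mutant kidneys, against 130, 218 and 155 in wild-type kidneys. The mutant arrays fell inside the wild-type range, and the difference was 0.03 ± 0.20 log2 units (limma, adjusted p = 0.968, 95% interval -0.41 to 0.46). A second Ldha probe was below the low-signal limit on all 6 arrays and was too dim to be tested. Ldhb had intensities of 227, 226 and 267 in mutant kidneys, against 207, 302 and 252 in wild-type kidneys, again with overlap. Ldhb differed by -0.07 ± 0.20 log2 units (limma, adjusted p = 0.913, 95% interval -0.50 to 0.36). The sign of both differences changed under some alternatives.

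The ratio of Ldha to Ldhb was -0.42, -0.57 and -0.56 log2 in mutants, against -0.67, -0.47 and -0.70 in wild type. These overlapped and differed by 0.10 (exact permutation p = 0.3, adjusted 0.375, n = 3 each). Whether the 5 pairs differ from one another in their shift was not tested.

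Vegfa, the vascular endothelial growth factor that hypoxia factors induce, had intensities of 11.8, 17.7 and 14.5 in mutant kidneys, against 10.4, 19.4 and 14.7 in wild-type kidneys. The ranges coincided almost fully, with replicate 1 lowest and replicate 2 highest in both genotypes. The difference was 0.01 ± 0.21 log2 units (limma, adjusted p = 0.991, 95% interval -0.45 to 0.47), and its sign changed with the scaling. With 3 arrays per genotype, changes within that interval remain compatible with the data. The interval is not the smallest change that the test could detect.

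Within wild type, replicate 1 was the lowest array for 6 of the 8 genes with all 3 values and replicate 2 the highest for 6 of 8. The same order was common over the 9106 genes of higher signal, of which 63.0% were lowest on replicate 1 and 52.4% highest on replicate 2. In mutants no array led, with replicates 1, 2 and 3 highest for 2, 3 and 2 of the 7 genes with all 3 values. The SD over arrays was smaller in mutants than in wild type for all 9 genes, and over all probes measured on every array the median SD was 0.30 log2 in mutants and 0.33 log2 in wild type.

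Of the other genes of glycolysis, 16 of 22 listed were tested, of which 0 rose and 1 fell. The median difference was 0.10, against 0.08 over all tested genes. Pklr, the pyruvate kinase of liver, red cells and proximal tubule, had intensities of 4.23, 4.25 and 4.45 in mutants, against 5.49, 12.4 and 7.83 in wild type. All mutant arrays were lower, and Pklr fell by 0.91 ± 0.24 log2 units (limma, adjusted p = 0.0463), a call kept in 9 of 19 alternatives and lost without wild-type replicate 2 or 3 or any of the mutant replicates. Pkm, the pyruvate kinase of most other tissues, was looked at after its values had been seen, as the other gene of that step. It had 3.18, 2.58 and 3.44 in mutants, against 1.15, 0.660 and 1.99 in wild type, and its difference of 1.41 ± 0.39 did not pass (limma, adjusted p = 0.0551). In wild type 1 of 3 Pkm values exceeded the low-signal limit, and with the dim ones set at it the mutants were at least 1.85-fold higher. Pkm passed with a replicate block, with robust variance, with no filter on dim probes and without wild-type replicate 3. The probe of Gapdh, a glycolytic dehydrogenase also chosen after its values had been seen, lay below the low-signal limit on all mutant arrays and on 2 of the 3 wild-type arrays, and no fold is given for it.

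Genes around pyruvate and lactate were mostly lower in mutants without passing the test. Of 14 tested, 12 had a negative difference, against 42.5% of all tested genes, and the median of the 14 was -0.28. Of the 15 with a probe, 5 were below the low-signal limit on every array. Among these were Ldhc and Pdk4, with negative differences, and Ldhd and Slc16a8, with positive ones. By limma with adjustment 0 passed in either direction. At an unadjusted p under 0.05, 0 were higher and 5 lower, against 14.6% and 6.29% of all tested genes. Pcx, the pyruvate carboxylase that feeds glucose synthesis, and Slc16a7, a monocarboxylate carrier, passed as lower after quantile normalization or cyclic loess. Pcx also did so with no filter on dim probes, with array weights, with a replicate block and without wild-type replicate 1. Of 9 other glucose transporters 0 passed, with 0 higher and 2 lower at an unadjusted p under 0.05. Several of these probes were dim. Slc2a8 was below the low-signal limit on every array, and Slc2a4, Slc2a9 and Slc5a2 were below it on every wild-type array. Slc2a5 exceeded it on 1 mutant and 2 wild-type arrays. Like Pcx and Slc16a7 named after its values had been seen, Slc2a2, the GLUT2 carrier of the proximal tubule, passed as lower after quantile normalization or cyclic loess, with robust variance, array weights or a replicate block, without replicate 1 of either genotype alone and without both.

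The oxygen sensing machinery comprises the hypoxia factors, their partner Arnt, the hydroxylases that modify those factors, and the ligase subunit Vhl that marks them for degradation. Of 10 such genes, all tested, 0 passed, with 0 higher and 1 lower at an unadjusted p under 0.05, against 14.6% and 6.29% of all tested genes. Several of these probes were dim. Epas1 was below the low-signal limit on every array. Hif3a exceeded it on 1 mutant and 0 wild-type arrays, Egln1 on 1 array of each genotype, and Vhl on 1 mutant and 2 wild-type arrays. Among 21 tested hypoxia target genes other than the 9, 2 rose and 1 fell, with a median of 0.13. Edn1, which encodes the vasoconstrictor endothelin 1, had 4.82, 4.59 and 3.49 in mutants, against 0.766, 1.13 and 0.531 in wild type. All wild-type arrays were below the low-signal limit, and the bound on the rise of Edn1 was at least 2.83-fold (limma, adjusted p = 0.000837), a call kept in all 19 alternatives.

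The other calls among hypoxia targets were less stable. Hmox1, the haem-degrading oxygenase that many stresses induce, had 14.7, 15.6 and 22.2 in mutants, against 6.98, 12.3 and 10.6 in wild type, and rose by 0.83 ± 0.21 log2 units (limma, adjusted p = 0.0357), a call kept in 8 of 19 alternatives and lost without any single array other than wild-type replicate 2. Car12, a membrane carbonic anhydrase, had 66.3, 55.3 and 59.5 in mutants, against 82.1, 86.7 and 92.2 in wild type. It fell by 0.53 ± 0.14 log2 units (limma, adjusted p = 0.0437), kept in 12 of 19 alternatives and lost without wild-type replicate 2 or 3 or any of the mutant replicates. The targets that passed thus moved in both directions.

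Among Vegfa's relatives, 6 of 9 listed ligands and receptors were tested, of which 1 rose and 0 fell. The untested Pgf, Flt1 and Nrp2 were below the low-signal limit on every array. Nrp1, a co-receptor for VEGF and semaphorins, had 15.2, 17.9 and 14.7 in mutants, against 5.80, 7.82 and 8.56 in wild type, with no overlap. It rose by 1.12 ± 0.17 log2 units, or 2.17-fold (limma, adjusted p = 0.00123), in 18 of 19 alternatives. Kdr, the main signalling receptor of Vegfa on endothelium, was chosen after its values had been seen, and differed by -0.0009 ± 0.15 log2 units. Vegfd, a ligand also named after its values had been seen, differed by 0.68 ± 0.22 (limma, adjusted p = 0.114). It passed as higher with a replicate block and without wild-type replicate 2. Of the 6 tested, 1 had a negative difference, against 42.5% of all tested genes. At an unadjusted p under 0.05, 2 were higher and 0 lower, against 14.6% and 6.29% of all tested genes.

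**Figure D4:**
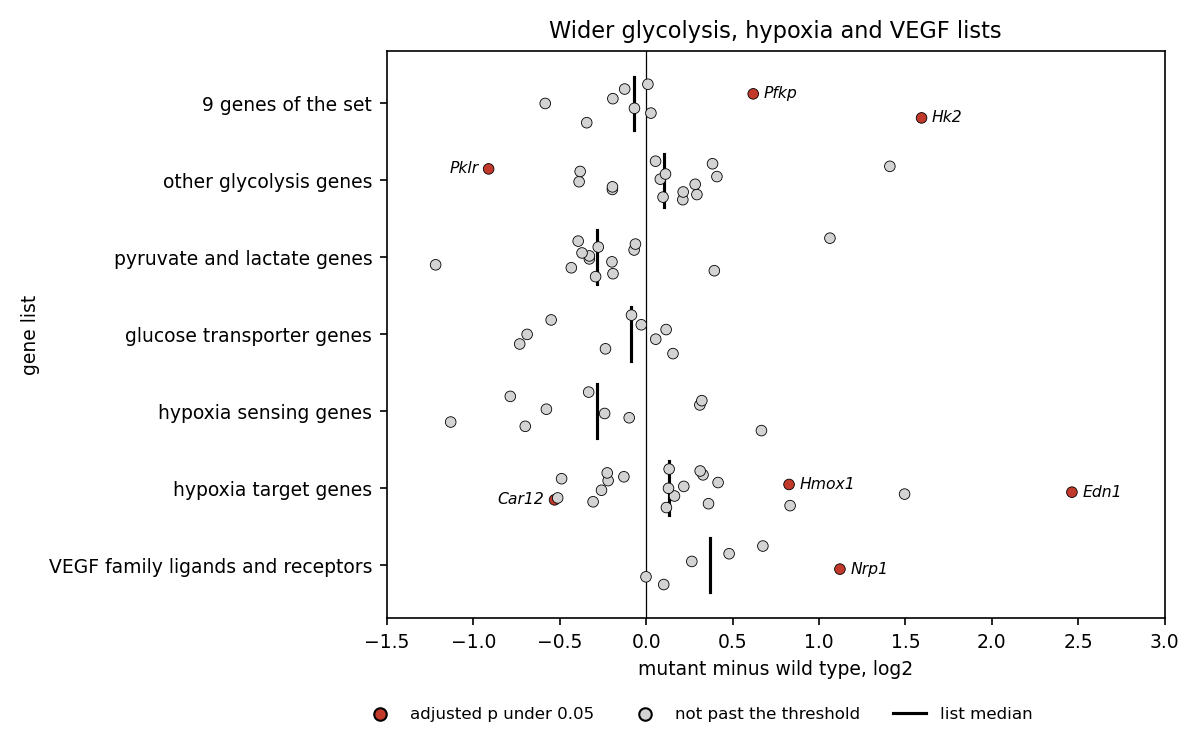
Difference of every tested gene in the wider lists, mutant minus wild type on the log2 scale, with list medians as black bars and genes past the threshold in red and named. The medians lie between -0.29 and 0.37, and the genes past the threshold lie on both sides of 0.

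Markers of several cell types moved with the genotype beside Hk2 and Pfkp. Of 10 measured macrophage markers 6 rose, and their summed intensity was 160 to 238 in mutants, against 37.9 to 42.7 in wild type. Of the 10, 3 were below the low-signal limit on every array and 2 had a negative difference. Adgre1, a defining macrophage marker, was below that limit on every array and at or below 0 on 1 array. Of 8 fibroblast markers 7 rose, with sums of 357 to 408 in mutants and 79.5 to 131 in wild type. Of 9 tested tubular injury markers 8 rose. The 11 with a probe summed to 334 to 362 in mutants and 75.5 to 99.0 in wild type. Of the 11, 2 were below the low-signal limit on every array and 1 had a value at or below 0.

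Of 16 proximal tubule markers 9 fell, and 15 with a value on every array summed to 1350 to 1620 in mutants, against 2450 to 2660 in wild type. Of 9 lymphocyte markers 1 rose, Cd3d, a subunit of the T cell receptor complex (limma, adjusted p = 0.0253), and 2 were higher at an unadjusted p under 0.05. The Cd3d call was kept in 12 of 19 alternatives and lost after quantile normalization or cyclic loess. The lymphocyte sums were 19.7 to 33.4 in mutants and 13.6 to 16 in wild type. The 8 principal cell markers summed to 90.9 to 124 in mutants and 76 to 90 in wild type, and 0 passed by limma, with 2 higher at an unadjusted p under 0.05. Of 6 distal convoluted tubule markers 1 fell, Pvalb, a calcium-binding protein (limma, adjusted p = 0.00337), with sums of 299 to 402 in mutants and 262 to 421 in wild type. In some other lists 0 genes passed, which does not show that they were unchanged. The 5 thick ascending limb markers summed to 313 to 388 in mutants and 350 to 431 in wild type. Of these 0 passed, with 1 higher at an unadjusted p under 0.05. The 6 intercalated cell markers summed to 64.4 to 84.9 in mutants and 61 to 73.5 in wild type, and 0 passed. Of 4 tested podocyte and 3 tested adipocyte markers 0 passed. At an unadjusted p under 0.05, 0 podocyte markers and 1 adipocyte marker were higher. The adipocyte median was -0.83, with 1 positive and 2 negative differences.

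Of 7 tested endothelial markers 1 rose, Tie1 (limma, adjusted p = 0.0333), a call kept in 12 of 19 alternatives. All 7 had a positive difference, and 5 were higher at an unadjusted p under 0.05. The 8 endothelial markers with a probe, 1 of them below the low-signal limit on every array, summed to 105 to 114 in mutants and 74.6 to 90.7 in wild type. Skeletal muscle markers, the tissue of the Pfkm subunit, were 5 of 6 below the low-signal limit on every array and summed to 3.96 to 4.83 in mutants and 4.16 to 5.41 in wild type, and 0 of 4 tested passed by limma, also 0 at an unadjusted p under 0.05. Erythroid markers summed to 2.67 to 10.7 in mutants and 8.44 to 15.2 in wild type over 3 genes, of which 0 passed and 1 was lower at an unadjusted p under 0.05. That sum includes Slc4a1, which is also an intercalated cell marker. Of the 3 genes, 1 was below the low-signal limit on every array, and 1 had a value at or below 0. The part of these cell types in the differences of Hk2, Pfkp, Pklr, Edn1 and Nrp1 was not tested.

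The genes whose profile over the 6 arrays was most like that of Hk2 were Sncaip, Abhd12, Nr4a3, Kcne1 and Glis2, with Pearson r of 0.997, 0.996, 0.992, 0.992 and 0.992. They were taken from 9105 genes of higher signal with a value on all 6 arrays, and the arrays fall into 2 genotypes and share their scaling, so r is a description only. Of these 5, Kcne1 rose by 0.88 ± 0.20 log2 units (limma, adjusted p = 0.0200), and the other 4 had adjusted p between 0.0526 and 0.489.

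**Figure D5:**
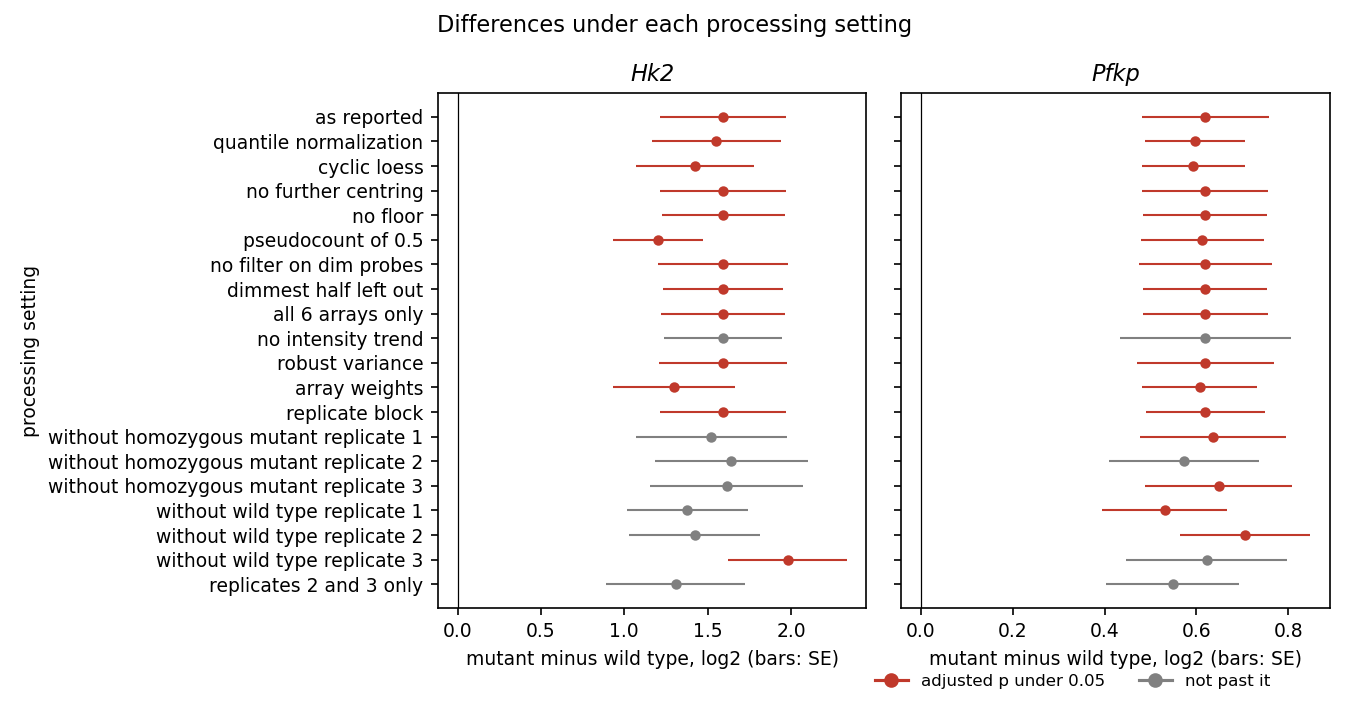
Differences of Hk2 and Pfkp, mutant minus wild type on the log2 scale with the SE of the fit, as reported and in 19 alternatives each. All differences are positive, and red points, past the threshold, number 12 of 19 alternatives for Hk2 and 15 of 19 for Pfkp.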

How the data were processed

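Kidney RNA of 3 homozygous mutant and 3 wild-type mice was hybridised to CodeLink arrays, per the labels' protocols. The deposited intensity values, 1 per probe and array, are linear, with 2.66% to 3.46% at or below 0 and a median near 1. How the authors corrected the background and scaled the arrays, and the genome build, is not stated in the labels used here. Each array was divided by its median and log2 was taken, leaving out values that were not above 0 and raising those under the 10th percentile to a floor of 0.290. Probes needed values on 2 arrays of each genotype, and the dimmest 25% were left out, leaving 25834 of 34937. Symbols came from the platform annotation: 21590 probes had 1, 681 several and 12666 none, and 21462 matched RefSeq.

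Genotypes were compared in limma 3.58.1 (R 4.3.3) with an intensity trend, and p-values were adjusted over all tested probes by Benjamini-Hochberg. The code was tested on simulated data. Genes named beyond the 9 are, per list and direction, up to 4 past the threshold by smallest p, and the 5 most like Hk2, with exceptions stated. The members and lists were chosen with earlier results of these data known. Alternatives covered scaling, floor, filters, variance model, pairing and arrays left out. The number of arrays limits the precision.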

Additional observations from a re-analysis of the deposited data

How the results depend on the processing

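The differences of Hk2, Pfkp and Pfkm kept their direction under 19 alternatives each, those of Hk1, Pfkl and Slc2a1 under the 15 or 16 that gave a value. The 5 isoform ratios kept theirs under the 13 run for them, which left out filters on dim probes and variance models. Without the intensity trend, 191 probes passed and 0 of the 9 genes did, Hk2 at 1.59 and Pfkp at 0.62 included. With only replicates 2 and 3 of each genotype, 912 probes and 0 genes passed, Hk2 at 1.31 and Pfkp at 0.55. Leaving out single arrays gave 742 to 1230 probes and 0 to 1 of the genes, with Hk2 between 1.38 and 1.98, Pfkp between 0.53 and 0.71, Ldha between -0.14 and 0.23, Ldhb between -0.21 and 0.068, and Vegfa between -0.22 and 0.23. Turned signs, none past the threshold, were Ldha at -0.15 with only replicates 2 and 3, Ldhb at 0.0091 after cyclic loess, and Vegfa at -0.11 after quantile normalization, -0.087 after cyclic loess, -0.0035 with array weights and -0.075 with only replicates 2 and 3. The cause of these turned signs was not tested. Of all calls 76.4% were higher in mutants, 61.5% after quantile normalization, 62.9% after cyclic loess and 93.7% with no intensity trend. The replicate numbers were not taken to pair the animals, although Xist and Eif2s3y signal divide them alike in both genotypes: same-numbered deviations correlated at 0.0719, 0.0199 and 0.0699, each above the 6 crossed pairs (at most 0.0034). With a replicate block 1856 probes and 2 of the genes passed, Hk2 at 1.59 (adjusted p = 0.0170) and Pfkp at 0.62 (0.00719), and no call among the 9 genes changed. For the isoform ratios the block, added after seeing the data, gave 1.76 for Hk2 to Hk1, 1.19 for Pfkp to Pfkl, 0.81 for Pfkp to Pfkm, 0.44 for Pfkm to Pfkl and 0.10 for Ldha to Ldhb. Another probe could be tried for Ldha alone, and it was too dim for the main test; with no filter on dim probes it differed by -0.30 ± 0.49 (limma, adjusted p = 0.865). Wild-type Hk2 was below the low-signal limit on 2 of 3 arrays, so its fold is a bound.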
